A study of Homo sapiens with 6 samples.

Results

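The genes of bone morphogenetic protein (BMP) signalling and their ID targets were examined in Hep-G2 cells after knockdown of CLGN, the gene of calmegin, a chaperone of the endoplasmic reticulum. The set comprised 10 of the 58735 genes in the expression table, chosen by name: the ligand BMP4, the receptors BMPR1A and BMPR2, the signal-carrying SMAD1 and SMAD5, the inhibitory SMAD6 and SMAD7, and the inhibitors of DNA binding ID1, ID2 and ID3. Hep-G2 is an established human liver cancer line, and messenger RNA was compared between 3 libraries in which a short hairpin RNA targeted CLGN (sh-CLGN) and 3 libraries with a negative control hairpin (sh-NC). In both groups the hairpin was carried by a lentivirus and cells were selected with puromycin, per the study's methods, and the labels give all 6 libraries the same batch entry and name no drug. Each group held 1 hairpin, so the loss of CLGN cannot be told apart from other effects of that hairpin or from a difference between the cultures. The labels do not say whether the 3 libraries of a group came from separate cultures, and p-values then measure only the spread between these libraries, which may be technical.

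BMP ligands bring together type I receptors such as BMPR1A and type II receptors such as BMPR2 at the cell surface. The type II receptor phosphorylates the type I receptor, which phosphorylates SMAD1, SMAD5 and SMAD9, and these enter the nucleus with SMAD4 and turn on ID1, ID2, ID3, SMAD6 and SMAD7, of which the latter pair feeds back on the pathway. ID proteins pair with basic helix-loop-helix (bHLH) transcription factors and keep them off DNA, and in hepatocytes the same pathway, aided by the co-receptor hemojuvelin (HJV), drives the iron hormone hepcidin (HAMP).

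Promoter windows running from 250 bases before to 50 bases after the start site were taken from RefSeq (GRCh38.p14) for all 10 members. Only the first window listed for each gene was used, so any other start sites were not searched. Some windows, such as that of BMP4, lie inside the gene span. ID1 and ID3 are shown as ID genes that fell, SMAD6 as a feedback gene that fell, BMP4 as the member that rose, and HAMP as the hepatocyte target. Each is given 5′ to 3′ on the gene's strand, with GGCGCC and with GTCT or its reverse complement AGAC in capitals. The windows lie at chr20:31605039-31605338 (plus strand) for ID1, chr1:23559452-23559751 (minus strand) for ID3, chr15:66701986-66702285 (plus strand) for SMAD6, chr14:53955001-53955300 (minus strand) for BMP4 and chr19:35282278-35282577 (plus strand) for HAMP.
ID1: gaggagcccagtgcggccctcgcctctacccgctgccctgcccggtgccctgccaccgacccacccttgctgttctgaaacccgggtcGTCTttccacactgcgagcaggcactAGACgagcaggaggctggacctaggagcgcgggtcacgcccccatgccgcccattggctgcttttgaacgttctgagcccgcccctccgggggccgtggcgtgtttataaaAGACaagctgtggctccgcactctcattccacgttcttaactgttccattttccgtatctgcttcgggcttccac
ID3: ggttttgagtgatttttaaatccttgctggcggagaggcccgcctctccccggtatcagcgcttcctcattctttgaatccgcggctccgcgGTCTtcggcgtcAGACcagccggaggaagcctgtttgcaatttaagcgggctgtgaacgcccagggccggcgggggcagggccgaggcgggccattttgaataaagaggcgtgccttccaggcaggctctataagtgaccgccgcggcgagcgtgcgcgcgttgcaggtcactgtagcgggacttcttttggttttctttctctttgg
SMAD6: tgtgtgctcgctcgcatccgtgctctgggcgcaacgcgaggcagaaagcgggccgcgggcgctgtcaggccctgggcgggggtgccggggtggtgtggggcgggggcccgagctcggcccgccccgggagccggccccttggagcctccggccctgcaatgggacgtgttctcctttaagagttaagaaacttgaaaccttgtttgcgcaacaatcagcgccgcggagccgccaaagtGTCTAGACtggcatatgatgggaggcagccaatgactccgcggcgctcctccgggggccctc
BMP4: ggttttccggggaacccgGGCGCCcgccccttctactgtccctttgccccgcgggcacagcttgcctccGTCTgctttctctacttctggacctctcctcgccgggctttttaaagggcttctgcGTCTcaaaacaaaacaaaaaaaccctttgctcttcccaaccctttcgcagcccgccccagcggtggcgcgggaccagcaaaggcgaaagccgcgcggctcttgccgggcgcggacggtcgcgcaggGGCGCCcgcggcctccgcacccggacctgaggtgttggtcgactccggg
HAMP: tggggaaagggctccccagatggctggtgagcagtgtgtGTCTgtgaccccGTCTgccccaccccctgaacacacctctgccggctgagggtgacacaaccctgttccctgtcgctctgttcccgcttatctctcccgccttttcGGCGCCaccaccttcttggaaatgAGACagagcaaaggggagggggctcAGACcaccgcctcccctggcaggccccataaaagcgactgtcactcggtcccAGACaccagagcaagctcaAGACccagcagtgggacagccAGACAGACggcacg

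GGCGCC, a GC-rich SMAD element that reads the same on both strands, occurred in 19.2% of 35116 RefSeq promoter windows of this length. It was found in the windows of BMP4, at -232 to -227 and at 2 to 7 from the start site, of SMAD5 at 21 to 26, of BMPR2 at -147 to -142 and of HAMP at -105 to -100. These letters did not occur in the windows of ID1, ID2, ID3, SMAD1, SMAD6, SMAD7 or BMPR1A. Outside the members, the windows of HJV and SMAD4 were also searched, and SMAD4 held GGCGCC at -125 to -120 while HJV did not. GTCT, the SMAD half-site, is common, with a match on either strand in 84.0% of windows. Its longer form CAGAC, which always overlaps a GTCT match on the opposite strand, occurred in 45.3%. In the SMAD6 window GTCT at -12 to -9 was followed directly by its reverse complement at -8 to -5. Adjacent matches also stood in the windows of SMAD7 (-127 to -124 and -123 to -120), BMPR2 (-106 to -103 and -102 to -99) and HAMP (37 to 40 and 41 to 44). The HAMP window held 8 matches to GTCT, that of BMPR2 6, that of SMAD7 4, that of ID1 3 and that of BMPR1A 0.

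The targeted gene was examined first. Values per library are given in the order of replicates 1, 2 and 3. CLGN (ENSG00000153132) measured 24.1, 21.0 and 26.1 FPKM (fragments per gene, corrected for its length and for the size of the library) with sh-NC and 9.48, 8.88 and 8.60 FPKM with sh-CLGN, and every sh-CLGN library was below every sh-NC library. The libraries held 14955816 to 16244639 reads on genes, recovered from the deposited values. Hepatocyte markers were strongly expressed in all libraries, with 17 of 18 above the expression filter and a summed level of 8801 to 9026 FPKM with sh-NC and 9003 to 9621 FPKM with sh-CLGN. Of the fibroblast and stellate markers, 5 of 10 were tested and all 5 rose, with a summed level of 7.48 to 8.96 FPKM in sh-NC and 49.5 to 50.9 FPKM in sh-CLGN, while DCN and THY1 had at most 3 reads in any library. COL1A1, COL3A1 and LUM passed the filter only through the sh-CLGN libraries, so that their rise was bound up with the filter. The other 2, COL1A2 and PDGFRB, reached 1 FPKM in both groups. COL1A2 had 3.86 to 4.85 FPKM with sh-NC and 38.3 to 39.4 FPKM with sh-CLGN, most of the sum. PDGFRB had 1.82 to 2.34 and 2.46 to 2.99 FPKM. Of 8 endothelial markers 1 was tested, PECAM1, which fell, the list summing to 3.45 to 3.78 FPKM with sh-NC and 2.47 to 2.83 with sh-CLGN, and VWF, KDR, TEK and ERG had at most 3 reads. Of 8 leukocyte markers, 2 were tested, LYZ at 60.7 to 76.2 FPKM and CD14 at 0.394 to 1.45 FPKM, and both fell, while CD68 and CD3E had at most 3 reads. In RNA from whole cultures, fewer cells of a type and less RNA per cell cannot be told apart, and the part of these marker changes in the results was not tested.

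SMAD5, SMAD6, SMAD7, BMPR1A and the 3 ID members fell in sh-CLGN, and the ligand BMP4 rose. By limma on log2(FPKM + 1), with p-values adjusted by Benjamini-Hochberg over 13074 tested genes and a threshold of 0.05, 7 members fell, 1 rose and 2 did not pass, and with TPM or read-total scaling 5 fell. All 10 members reached the filter level of 1 FPKM in both groups. Over all tested genes 39% were called lower and 26.7% higher. In 8 members every sh-CLGN library was below every sh-NC library and in 1 every one was above, where 41.5% and 28.7% of all tested genes were separated in those directions. No member changed by 1 or more on the log2 scale, a size that together with the adjusted p was reached by 3.19% of tested genes downwards and 3.09% upwards. The median log2 fold change of the members was -0.31, against -0.08 over all tested genes.

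**Figure D1:**
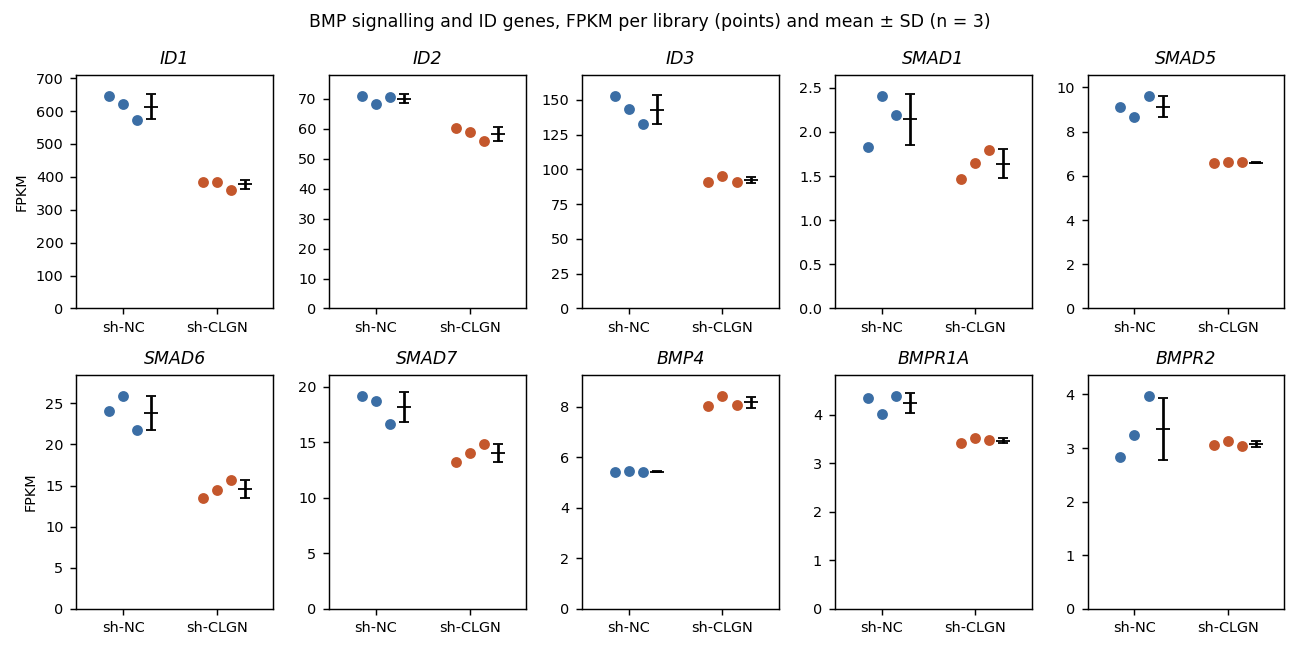
Expression of the 10 members in FPKM (vertical axes, each from 0) in the 3 sh-NC libraries (blue) and the 3 sh-CLGN libraries (orange), with the mean and SD of each group in black. The groups are apart in 9 panels, with BMP4 alone higher in sh-CLGN, and they overlap in BMPR2.

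The ligand BMP4 (ENSG00000125378; chromosome 14, 53949736 to 53958761, minus strand, GRCh38) was the member that rose. BMP4 measured 5.44, 5.44 and 5.43 FPKM with sh-NC and 8.03, 8.43 and 8.10 FPKM with sh-CLGN. All sh-CLGN libraries were above all sh-NC libraries, and the spread within sh-NC was smaller than the counting error of its 234 to 259 reads. The mean rose from 5.44 ± 0.00731 to 8.19 ± 0.214 FPKM (SD, n = 3), or 151% of the control, from 234 to 426 reads per library. The log2 fold change was 0.51 (SE 0.051, limma adjusted p = 7.61e-05).

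BMP2, the closest relative of BMP4 and the main BMP ligand by level in these cells, went the other way. It fell from 59.9 ± 2.61 to 35.5 ± 0.289 FPKM (SD, n = 3), a log2 fold change of -0.74 (SE 0.048, limma adjusted p = 1.01e-05), or -0.45 with quantile normalization. BMP2 and BMP4 summed to 65.4 ± 2.61 FPKM in sh-NC and 43.7 ± 0.467 FPKM in sh-CLGN, and the share of BMP4 in that sum was 8.33% ± 0.322 and 18.7% ± 0.318. The groups were apart in the sum and in the share, and the two-sided exact permutation test gave p = 0.1, the smallest that 3 against 3 libraries allow. Of the 13 other ligands listed, 4 passed the expression filter. GDF7, a ligand of the same receptors, rose from 2.30 to 3.67 FPKM (log2 fold change 0.50), and BMP8B had 1.26 and 1.16 FPKM and was not called (adjusted p = 0.524).

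The type I receptor BMPR1A (ENSG00000107779; chromosome 10, 86756601 to 86932838, plus strand) fell slightly. BMPR1A measured 4.35, 4.01 and 4.38 FPKM with sh-NC and 3.41, 3.51 and 3.47 FPKM with sh-CLGN. The groups did not overlap. The mean went from 4.25 ± 0.208 to 3.46 ± 0.0520 FPKM (SD, n = 3), a log2 fold change of -0.23 (SE 0.061, limma adjusted p = 0.0106). Its read counts, 668 to 774 and 640 to 660, were also apart, but the fold change was -0.15 with TPM scaling (adjusted p = 0.115) and -0.08 with values scaled by read totals (adjusted p = 0.305). The processed pseudogenes BMPR1AP1 and BMPR1AP2 had 0 to 4 reads in any library.

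The type II receptor BMPR2 (ENSG00000204217; chromosome 2, 202376936 to 202567751, plus strand) did not pass the test. BMPR2 measured 2.83, 3.25 and 3.97 FPKM with sh-NC and 3.06, 3.14 and 3.04 FPKM with sh-CLGN. The sh-CLGN libraries lay within the range of sh-NC, whose replicate 3 was the highest of all. The log2 fold change was -0.08 (SE 0.098, limma adjusted p = 0.476), and without sh-NC replicate 3 it was 0.02. BMPR2 was also the only member with a match in its annotated 3′ UTR to a site for the guide of the CLGN hairpin, with 1 TACCACA and 1 ATACCAC in 8049 bases. Among tested genes with an annotated 3′ UTR, 10.8% held TACCACA and 7.90% held ATACCAC. Either site was held by 14.8% of these genes. Beyond the members, sites were searched only in BMP2, HJV, SMAD4, the phosphatase gene CTDSPL, FSTL1, BMP1, HAMP, HES1 and JUNB. Of these, SMAD4 and CTDSPL held 1 TACCACA each. Whether such sites bear on any change was not tested.

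All 7 tested genes among the 12 other receptors and co-receptors were called, 6 lower and 1 higher, beside 39% and 26.7% of all tested genes. The gene that rose, HJV, the hemojuvelin co-receptor of hepcidin control, had the largest change of the 60 tested genes on the list. HJV was at 1.33, 1.13 and 1.28 FPKM in sh-NC and at 10.8, 10.6 and 9.68 FPKM in sh-CLGN, from 40 to 48 and 378 to 441 reads per library. Its log2 fold change was 2.33 (SE 0.069, limma adjusted p = 6.64e-07). NEO1, the neogenin receptor that binds hemojuvelin, fell from 13.5 ± 1.13 to 6.40 ± 0.641 FPKM (log2 fold change -0.98). TFR2, the hepatocyte transferrin receptor of iron sensing, fell from 7.02 ± 0.243 to 3.48 ± 0.277 FPKM (log2 fold change -0.84). These genes of iron-dependent BMP signalling in the hepatocyte membrane moved in opposite directions.

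SMAD5 (ENSG00000113658; chromosome 5, 136132845 to 136188747, plus strand), the most abundant of the BMP-responsive SMADs here, fell. SMAD5 measured 9.10, 8.68 and 9.62 FPKM with sh-NC and 6.57, 6.61 and 6.62 FPKM with sh-CLGN. The groups were far apart relative to their spread. The mean went from 9.13 ± 0.474 to 6.60 ± 0.0273 FPKM (SD, n = 3), a log2 fold change of -0.41 (SE 0.056, limma adjusted p = 0.00035).

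SMAD1 (ENSG00000170365; chromosome 4, 145481194 to 145558079, plus strand), which carries the same signal, just missed the threshold. SMAD1 measured 1.83, 2.41 and 2.19 FPKM with sh-NC and 1.47, 1.65 and 1.80 FPKM with sh-CLGN. The groups did not overlap, although the lowest sh-NC and the highest sh-CLGN value were close. The log2 fold change was -0.25 (SE 0.097, limma adjusted p = 0.0503) from 151 to 213 reads per library. The call was made in 5 of the 18 alternatives, among them leaving out sh-NC replicate 1 (-0.32, adjusted p = 0.0241). SMAD1-AS1 and SMAD5-AS1, which overlap these genes on the opposite strand, had at most 1 read in any library.

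SMAD9, the third SMAD of this kind, fell from 2.32 ± 0.157 to 1.35 ± 0.157 FPKM (log2 fold change -0.50), and SMAD4, the shared partner, from 6.62 ± 0.239 to 4.99 ± 0.30 FPKM (log2 fold change -0.35, SE 0.062, limma adjusted p = 0.00153), or -0.18 with scaling by read totals (adjusted p = 0.0403). SMAD1, SMAD5 and SMAD9 summed to 13.6 ± 0.513 FPKM in sh-NC and 9.59 ± 0.229 FPKM in sh-CLGN (exact permutation p = 0.1). SMAD5 made up 67.2% and 68.8% of that sum, and these shares overlapped between groups (exact permutation p = 0.3). Of the 9 tested SMADs and SMAD partners outside the members, 5 fell and 1 rose, beside 39% and 26.7% of all tested genes. Those that fell included the SMAD corepressor SKI, from 39.3 ± 3.15 to 24.7 ± 2.55 FPKM (-0.65), and TOB2, a member of the antiproliferative TOB family, from 28.1 ± 1.16 to 16.5 ± 0.454 FPKM (-0.73).

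SMAD6 (ENSG00000137834; chromosome 15, 66702228 to 66782848, plus strand), the inhibitory SMAD that acts mainly on BMP receptors, fell. SMAD6 measured 24.0, 25.9 and 21.7 FPKM with sh-NC and 13.5, 14.5 and 15.7 FPKM with sh-CLGN. Every sh-CLGN library was well below the lowest sh-NC library. Its mean dropped from 23.9 ± 2.07 to 14.5 ± 1.08 FPKM (SD, n = 3), to 60.9% of the control, with a log2 fold change of -0.68 (SE 0.078, limma adjusted p = 0.000155).

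SMAD7 (ENSG00000101665; chromosome 18, 48919853 to 48952052, minus strand), which inhibits both BMP and TGF-beta receptors, fell less. SMAD7 measured 19.2, 18.7 and 16.6 FPKM with sh-NC and 13.2, 14.0 and 14.8 FPKM with sh-CLGN. The groups did not overlap. Its mean dropped from 18.2 ± 1.35 to 14.0 ± 0.814 FPKM (SD, n = 3), a log2 fold change of -0.35 (SE 0.069, limma adjusted p = 0.0025). After removal of the GC trend it was -0.11 (adjusted p = 0.0527), and with quantile normalization -0.14 (adjusted p = 0.0783). SMAD6 lay above SMAD7 in each of the 6 libraries, and the ranges of both genes across libraries were apart in sh-NC and overlapped in sh-CLGN.

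ID1 (ENSG00000125968; chromosome 20, 31605283 to 31606515, plus strand), a classic direct target of BMP signals, was the most abundant member and fell. ID1 measured 646, 621 and 572 FPKM with sh-NC and 384, 385 and 361 FPKM with sh-CLGN. The lowest sh-NC library was far above the highest sh-CLGN library. Its mean dropped from 613 ± 37.5 to 377 ± 13.4 FPKM (SD, n = 3), to 61.4% of the control, from 7192 to 11173 reads per library. The log2 fold change was -0.70 (SE 0.060, limma adjusted p = 3.72e-05), and 9.26% of all tested genes had a lower one.

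ID3 (ENSG00000117318; chromosome 1, 23557918 to 23559794, minus strand) fell by a similar factor. ID3 measured 153, 144 and 132 FPKM with sh-NC and 90.9, 95.3 and 91.1 FPKM with sh-CLGN. The sh-CLGN libraries lay close together and below all of sh-NC. Its mean dropped from 143 ± 10.3 to 92.4 ± 2.48 FPKM (SD, n = 3), to 64.6% of the control, with a log2 fold change of -0.62 (SE 0.060, limma adjusted p = 6.51e-05).

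ID2 (ENSG00000115738; chromosome 2, 8678845 to 8684453, plus strand), which many other signals also control, changed least of the ID members. ID2 measured 71.1, 68.3 and 70.8 FPKM with sh-NC and 60.4, 58.9 and 55.8 FPKM with sh-CLGN. In FPKM the groups did not overlap, while its read counts, 2186 to 2414 for sh-NC and 1987 to 2260 for sh-CLGN, did. Its mean dropped from 70.0 ± 1.51 to 58.4 ± 2.35 FPKM (SD, n = 3), to 83.4% of the control, with a log2 fold change of -0.26 (SE 0.048, limma adjusted p = 0.00187). The fall of ID2 depended on the scaling, since it was -0.14 with TPM scaling (adjusted p = 0.0514), -0.07 with scaling by read totals (adjusted p = 0.273) and 0.03 with quantile normalization (adjusted p = 0.677). ID2-AS1 overlaps 38 exon bases of ID2 on the opposite strand and had 73 to 126 reads per library, against 1987 to 2414 on ID2, and whether the counting used strand was not given in the sources used here.

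ID1, ID2, ID3 and the fourth family member ID4 summed to 836 ± 47.3 FPKM in sh-NC and 536 ± 17.1 FPKM in sh-CLGN (exact permutation p = 0.1). ID1 made up 73.3% ± 0.441 of that sum in sh-NC and 70.2% ± 0.366 in sh-CLGN. The share of ID2 was 8.40% ± 0.525 and 10.9% ± 0.199, and that of ID3 was 17.1% ± 0.270 and 17.2% ± 0.468. Per unit of the bHLH E proteins TCF3, TCF4 and TCF12, which ID proteins bind, there were 22.8 ± 1.12 FPKM of ID transcripts in sh-NC and 17.5 ± 1.25 in sh-CLGN (exact permutation p = 0.1). ID4 alone had 9.91 ± 0.350 and 8.85 ± 0.613 FPKM and was not called (log2 fold change -0.15, limma adjusted p = 0.0665).

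Related members were also set against each other within each library, over 6 pairs with log2 ratios of FPKM + 1. The ratio of ID1 to ID2 was 3.0 to 3.17 with sh-NC and 2.65 to 2.69 with sh-CLGN, a difference of -0.44 (SE 0.057). The ratio of ID2 to ID3 differed by 0.36 (SE 0.072) and that of SMAD6 to SMAD7 by -0.32 (SE 0.042), while ID1 to ID3 differed by only -0.08 (SE 0.029). In these 4 pairs the groups did not overlap, each with an exact two-sided permutation p = 0.1 and an adjusted p of 0.15, so that none could pass with 3 against 3 libraries. SMAD1 to SMAD5 (0.17, SE 0.11, exact p = 0.3) and BMPR1A to BMPR2 (-0.15, SE 0.11, exact p = 0.4) overlapped between groups.

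By level per gene length, sh-NC libraries held the members in the order ID1, ID3, ID2, SMAD6, SMAD7, SMAD5, BMP4, BMPR1A, BMPR2 and SMAD1, from 613 to 2.14 FPKM, and no neighbours in that order overlapped. In sh-CLGN, BMP4 with 8.19 FPKM stood above SMAD5 with 6.60 FPKM, the reverse of sh-NC. SMAD6 and SMAD7 were the only neighbours that overlapped there.

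The rest of the pathway was read from a list of 97 further genes, of which 60 were tested. In the limma fit 33 of them fell, 14 rose and 13 did not pass, with a median log2 fold change of -0.31, against -0.08 over all tested genes, of which 39% fell and 26.7% rose. Past a log2 fold change of 1 as well, 3 fell and 3 rose, where the shares over all tested genes were 3.19% and 3.09%.

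**Figure D2:**
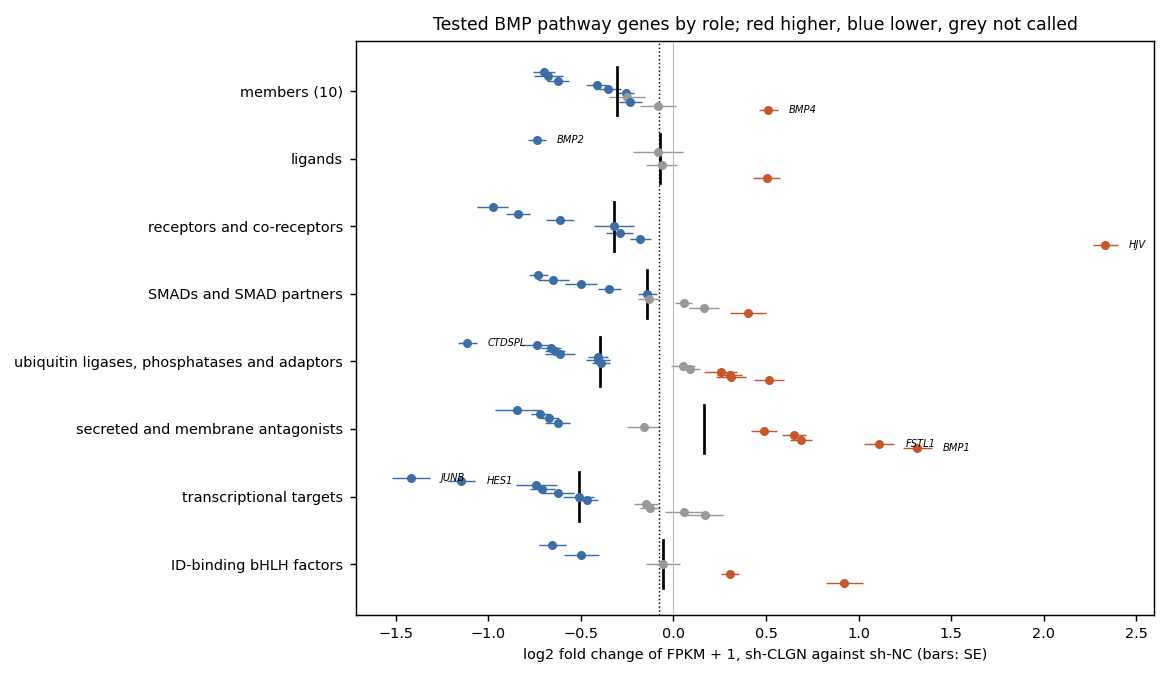
Log2 fold change of FPKM + 1 in sh-CLGN against sh-NC (horizontal axis, bars are the SE) for the members and for the 60 other tested pathway genes by role, where a red point was called higher, a blue point lower and a grey point not called. Black bars mark the median of each row and the dotted line the median of all tested genes (-0.08), and the targets have the lowest median (-0.51) and the antagonists the highest (0.16).

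Among 11 tested transcriptional targets other than the members, 7 fell and 0 rose, beside 39% and 26.7% of all tested genes, and the median log2 fold change was -0.51. Of the 7, LFNG passed the filter only through the sh-NC libraries. The other 4 listed targets were under the filter and not tested. RUNX2 had 8 to 18 reads with sh-NC and 56 to 66 with sh-CLGN, and ATOH8 had 0 and 2 to 10. DLX5 had 2 to 7 and 4 to 7 reads and overlapped between groups, and MSX2 had 0 reads. Among all genes under the filter with at least 10 reads, 38.9% were separated upwards. HAMP, the hepcidin gene, was at 8.62, 7.78 and 8.48 FPKM in sh-NC and at 6.21, 5.49 and 4.90 FPKM in sh-CLGN. The groups did not overlap, and the log2 fold change was -0.51 (SE 0.083, limma adjusted p = 0.000921), or -0.27 with the GC trend removed (adjusted p = 0.0311). Past the fold threshold were JUNB, an AP-1 factor, which fell from 57.6 ± 8.22 to 20.8 ± 1.18 FPKM (-1.42), and HES1, a repressor that is also a Notch target, which fell from 30.3 ± 3.17 to 13.1 ± 0.249 FPKM (-1.15). GATA2, a transcription factor, fell from 11.3 ± 0.212 to 6.54 ± 0.603 FPKM (-0.71). JUNB, HES1 and GATA2 answer to several pathways besides BMP. HOOK2 overlaps 14.2% of the exon bases of JUNB on the opposite strand and had 221 to 324 reads per library.

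Of the 10 tested secreted and membrane antagonists, 5 rose and 4 fell, beside 26.7% and 39% of all tested genes. BAMBI, a decoy receptor that is itself induced by BMP signals, fell from 170 ± 7.74 to 103 ± 3.68 FPKM (log2 fold change -0.72, SE 0.053, limma adjusted p = 1.75e-05), or -0.39 with quantile normalization. FSTL1, a secreted follistatin-like protein, rose from 5.75 ± 0.714 to 13.5 ± 0.460 FPKM (1.11). BMP1, listed here although it is a protease that cleaves procollagen and the antagonist chordin and not a BMP ligand, rose from 3.49 ± 0.327 to 10.2 ± 0.778 FPKM (1.32). The fibroblast and stellate markers given above, among them collagen genes, rose in the same libraries.

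Among 14 tested ubiquitin ligases, phosphatases and adaptors, 8 fell and 4 rose, beside 39% and 26.7% of all tested genes. The share that rose was near that of all tested genes. CTDSPL and CTDSP2, small phosphatases that act on SMADs, fell from 11.9 ± 0.307 to 4.98 ± 0.132 FPKM (-1.11) and from 66.5 ± 3.33 to 41.7 ± 1.23 FPKM (-0.66). NEDD4L, a ubiquitin ligase for SMADs, fell from 9.52 ± 0.392 to 5.74 ± 0.0671 FPKM (-0.64). Of the 5 tested bHLH partners of ID proteins, 2 fell and 2 rose, beside 39% and 26.7% of all tested genes. TCF3 fell from 26.8 ± 3.48 to 18.6 ± 1.11 FPKM (-0.50) and BHLHE40 fell from 34.3 ± 1.84 to 21.4 ± 1.99 FPKM (-0.65). TCF12 rose from 8.62 ± 0.243 to 10.9 ± 0.183 FPKM (0.30) and BHLHE41 had 0.219 ± 0.0359 and 1.31 ± 0.144 FPKM (0.92). BHLHE41 passed the filter only through the sh-CLGN libraries, so its call was bound up with the filter, and its value was 2.15 with a pseudocount of 0.1 and 2.55 with voom.

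The other 37 listed genes were under the expression filter and were not tested. Of these, 20 had at least 10 reads in all, and as a share of all reads 15 of the 20 were higher in every sh-CLGN library than in any sh-NC library and 2 were lower. Over all 9013 genes of that kind, 38.9% were separated upwards and 4.83% downwards. BMPR1B, the other BMP type I receptor of this family, had 12 to 14 reads with sh-NC and 48 to 69 with sh-CLGN, or 0.137 ± 0.00657 and 0.562 ± 0.114 FPKM. The BMP co-receptor RGMB had 87 to 103 reads with sh-NC and 39 to 49 with sh-CLGN. BMP6, the ligand of iron control, had 1 to 10 and 12 to 18 reads. BMPR1B, RGMB and BMP6 were chosen after their values were seen.

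Across all tested genes the change between groups moved with GC content and with level. With tested genes in 10 bins of equal size by transcript GC content, the median change was 0.25 in the bin of lowest GC and -0.29 in that of highest GC, and in 10 bins by mean level it was 0.25 in the lowest and -0.30 in the highest. ID1, SMAD6 and SMAD7 lay in GC bin 9, with a median of -0.24, ID3 in bin 8 (-0.25) and ID2 and BMP4 in bin 7 (-0.21). SMAD1 lay in bin 5 (-0.08), BMPR1A in bin 2 (0.12) and SMAD5 and BMPR2 in bin 1 (0.25). By level, ID1, ID2 and ID3 lay in bin 10 (median -0.30), so that ID2 (-0.26) fell less than that median. SMAD6 lay in level bin 9 (-0.27), SMAD7 in bin 8 (-0.22) and BMP4 and SMAD5 in bin 6 (-0.12). BMPR1A and BMPR2 lay in level bin 4 (-0.02) and SMAD1 in bin 2 (0.13). With the GC trend removed, ID1 (-0.45), ID3 (-0.38) and SMAD6 (-0.43) fell less, SMAD5 (-0.65) fell more and BMP4 (0.72) rose more, and all 5 kept their calls. ID2 (-0.06, adjusted p = 0.304) and SMAD7 (-0.11, adjusted p = 0.0527) lost their calls, and BMPR2 gained one (-0.30, adjusted p = 0.00938).

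**Figure D3:**
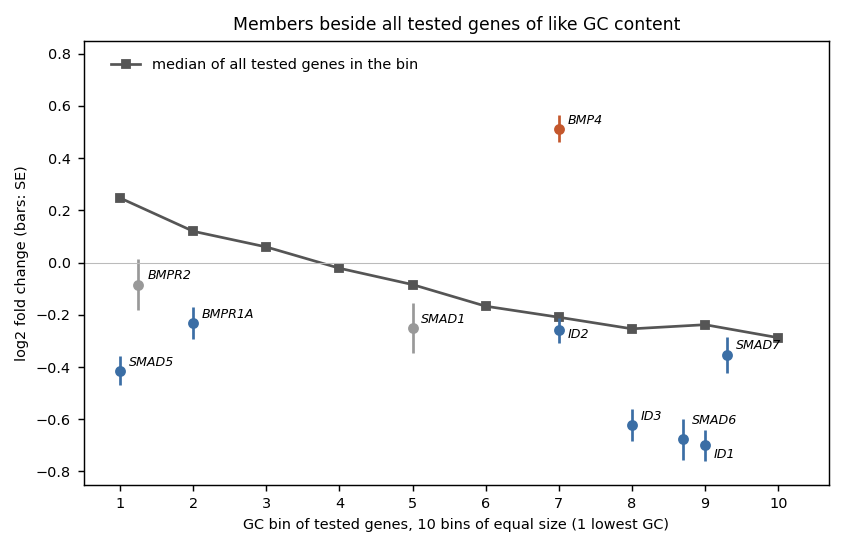
Log2 fold change of each member (points, bars are the SE, orange called higher, blue lower, grey not called) against the bin of transcript GC content to which it belongs (horizontal axis, 10 bins of equal size), with the median of all tested genes in each bin (grey squares). Points in the same bin are set slightly apart sideways, and ID2 lies near the median of bin 7 (-0.21) while SMAD5 lies far below the median of bin 1 (0.25).

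The deposited FPKM rested on library sizes of 0.933 to 0.953 times the reads on genes for sh-NC and 1.07 to 1.08 times for sh-CLGN. With values scaled by read totals instead, the median of all tested genes moved by 0.16, from -0.08 to 0.08, and with TPM scaling by 0.11. Under both scalings ID1, ID3, SMAD5, SMAD6 and SMAD7 were still called lower and BMP4 higher. Over all 18 alternatives the log2 fold change ranged from -0.75 to -0.42 for ID1, from -0.68 to -0.32 for ID3, from -0.74 to -0.43 for SMAD6, from -0.65 to -0.24 for SMAD5 and from 0.49 to 0.72 for BMP4.

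**Figure D4:**
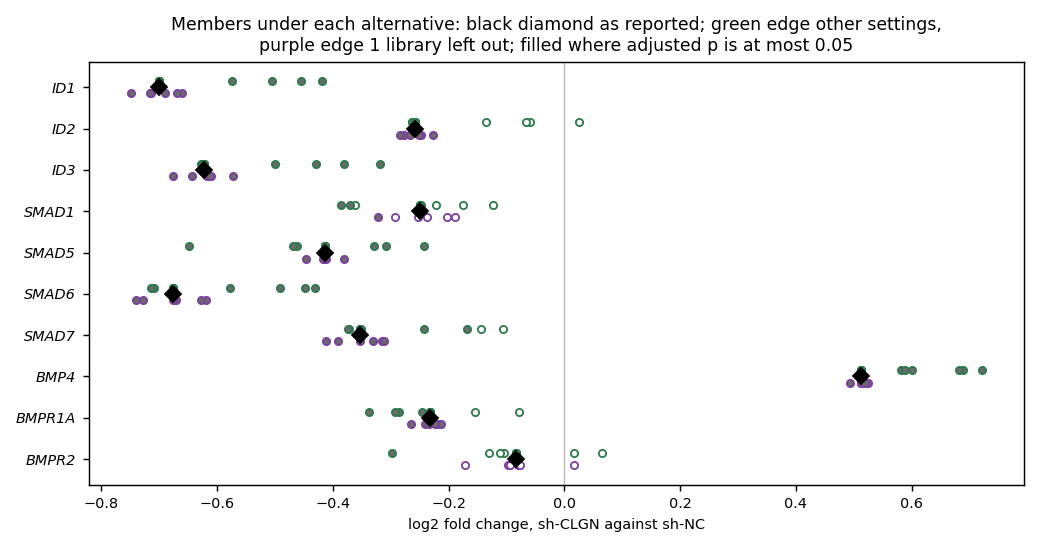
Log2 fold change of each member (horizontal axis) as reported (black diamond) and under the 18 alternatives, with settings edged in green and fits without 1 library edged in purple. Circles are filled where the adjusted p was at most 0.05, and they stay filled for ID1, ID3, SMAD5, SMAD6 and BMP4, while ID2 and BMPR2 reach or cross 0.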

How the data were processed

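Messenger RNA profiles of 6 libraries of Hep-G2 cells were used, with 3 libraries per hairpin (sh-NC or sh-CLGN) grouped by the labels. The authors deposited FPKM values per gene with gene lengths. Per the submitters' processing notes, HISAT2 2.0.5, featureCounts and GRCh38 were used. The strandedness of counting was not given in the sources used here. All 58735 gene positions equalled GENCODE 29. FPKM times length gave whole reads for 100% of values within 0.01 of a read, and the count model on these reads (voom) was an alternative.

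The members, lists and alternatives were chosen with earlier results of these data known. limma 3.58.1 in R 4.3.3, with an intensity trend, was fitted to log2(FPKM + 1) of the genes that reached 1 FPKM in 3 or more libraries, two-sided, with Benjamini-Hochberg adjustment. Changes on this scale understate those of low genes. Named pathway genes were those past both thresholds, the 3 of each role with the smallest adjusted p, SMAD4 and HAMP. ID4, LFNG, TCF3, TCF4 and the genes under the filter fall outside this rule. The procedure was tested on simulated data with few changed genes and no trend with GC content or level. That test cannot speak to calls that depend on GC content, level or scaling. GC content and 3′ UTRs of at least 50 bases came from GENCODE 29 transcripts. Alternatives comprised a smaller pseudocount (0.1), a looser filter (mean of 0.1 FPKM or more) or none, median-ratio, TPM, quantile and read-total scaling, removal of the GC trend (lowess span 0.3), limma without trend, robust eBayes, voom, a replicate block and leaving out each library. Ratios were tested with scipy 1.17.1 under Python 3.11.15, and figures were drawn with matplotlib 3.10.9.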

Additional observations from a re-analysis of the deposited data

How the results depend on the processing

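ID1, ID3, SMAD5, SMAD6 and BMP4 kept direction and call under all 18 alternatives, of which scaling by read totals was chosen after seeing the data. ID2 was 0.0252 under quantile normalization. BMPR2 was 0.0171 with TPM scaling, 0.0643 with scaling by read totals and -0.171 to 0.0163 with 1 library left out, the last without sh-NC replicate 3. BMP8B was 0.00707 with TPM scaling, 0.169 without the GC trend and 0.0423 with scaling by read totals. The cause of these reversals was not tested. SKI was -0.37 with quantile normalization and -0.40 without the GC trend, CTDSP2 -0.38 and BHLHE40 -0.40 with quantile normalization, GATA2 -0.46 without the GC trend, SMAD9 -0.78 with voom and TCF12 0.48 with scaling by read totals, all with their calls kept. The members called lower numbered 5 to 8 and those called higher 1 in each alternative. Listed pathway genes called higher numbered 22 with no filter and 22 with a mean of at least 0.1 FPKM, where more genes were tested. Those called lower past the fold threshold numbered 5 with a pseudocount of 0.1, 8 with voom and 1 with scaling by read totals, where the cause was not tested. Of all calls, 40.7% were higher in the main comparison, 52.2% with TPM scaling, 59.2% with scaling by read totals, 48.2% with quantile normalization, 48.9% without the GC trend and 49.1% with no filter.

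With the replicate number as a block, 7 members were called lower and 1 higher, ID1 had an adjusted p of 0.000322 and 31 pathway genes were called lower. The correlations of the deviations of same-numbered libraries were -0.018, -0.046 and -0.15, so no shared deviation was seen. These values do not show whether same-numbered libraries were prepared together. With a library left out, the change was -0.75 to -0.66 for ID1, -0.28 to -0.23 for ID2, -0.68 to -0.57 for ID3 and -1.39 to -1.24 for CLGN, and the pathway genes called lower numbered 30 to 31. With 3 libraries a group no exact permutation test could go below 0.1, and SMAD1 rested on 151 to 213 reads per library.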
